A study of Mus musculus with 6 samples.

Results

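The 9 genes described here encode the main proteins of the basement membrane: Col4a1 and Col4a2, the 2 chains of the most widespread collagen IV; Lama1, Lama5 and Lamc1, chains of laminin; Nid1 and Nid2, the nidogens; and Hspg2 (perlecan) and Col18a1 (collagen XVIII), which carry heparan sulfate. They were chosen by name, as every probe set of the array whose only gene symbol in the platform annotation is 1 of these 9, under its current or an older symbol. This gave 17 of the 45037 probe sets that are not controls, 0 of them through an older symbol, and 16 of the 17 had a mean above the filter on dim signal. All 9 genes were among the 12684 genes tested, of 18193 genes with a probe set of their own, and the probe set that stood for each lay above the filter signal of 40.12 on every array.

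The samples were mouse embryonic stem cells of the J1 line infected with pLKO.1 lentivirus carrying shJmjd1c#3 or shJmjd1c#4 (sh3 and sh4 here), hairpins against Jmjd1c, a JmjC-domain protein of the histone demethylase family, or the control hairpin shNT. Jmjd1c knockdown cells and control cells alike were put under puromycin (1.5 ug/ml) from 1 day after infection for 2 days, then replated and grown for 4 days on gelatin in 15% serum with leukemia inhibitory factor at 1000 U/ml. Each of the 3 groups had 2 biological replicates and each replicate 1 Affymetrix Mouse Genome 430 2.0 array, so there were 4 knockdown arrays and 2 control arrays, and both hairpins were set against the same controls. The comparisons ask how a lower dose of Jmjd1c, by the labels, goes with gene expression in embryonic stem cells.

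A basement membrane is a thin sheet of matrix under epithelia. Laminin trimers of an alpha, a beta and a gamma chain assemble at the cell surface, collagen IV trimers of 2 alpha 1 chains and 1 alpha 2 chain form a covalent network, and nidogen and perlecan bind both. In the early mouse embryo the primitive endoderm and its derivative, parietal endoderm, make much of this material, and embryonic stem cells make laminin and collagen IV as well. The Col4a1 and Col4a2 genes lie head to head and are transcribed in opposite directions from a shared promoter region.

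The promoters of that pair are shown because Col4a1 and Col4a2 were the members with the largest differences here. By the probe sets that stood for them, both were higher on every knockdown array than on both control arrays. Each sequence is the RefSeq window of 250 bases before to 50 after the gene's start on build GRCm38.p6, 5′ to 3′ on the gene's own strand, chr8:11312777-11313076 on the minus strand for Col4a1 and chr8:11312555-11312854 on the plus strand for Col4a2. The capitals mark the 78 bases that both windows share, read from opposite strands.

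Col4a1: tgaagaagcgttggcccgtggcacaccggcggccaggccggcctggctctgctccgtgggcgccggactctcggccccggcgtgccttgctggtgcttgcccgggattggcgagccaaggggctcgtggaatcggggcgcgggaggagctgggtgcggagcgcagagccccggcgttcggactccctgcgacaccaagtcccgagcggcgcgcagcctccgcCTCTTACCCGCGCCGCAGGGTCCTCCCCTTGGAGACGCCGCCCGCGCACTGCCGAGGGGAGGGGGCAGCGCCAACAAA

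Col4a2: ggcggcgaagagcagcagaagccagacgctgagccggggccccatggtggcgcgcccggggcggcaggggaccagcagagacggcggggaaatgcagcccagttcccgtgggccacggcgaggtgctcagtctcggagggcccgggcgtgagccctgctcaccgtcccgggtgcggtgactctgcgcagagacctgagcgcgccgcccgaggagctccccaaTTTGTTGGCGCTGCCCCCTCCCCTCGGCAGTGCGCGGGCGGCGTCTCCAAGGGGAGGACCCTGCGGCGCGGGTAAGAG

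The 2 starts lie 21 bases apart and the windows together span 522 bases. The Col4a1 start lies downstream of the Col4a2 start, so by these starts the 5′ ends of the 2 transcripts overlap, with no gap between them. They are rich in G and C, with 74% GC in the Col4a1 window and 73.7% in the Col4a2 window, against a median of 52.7% over the 32851 windows of the table, and they hold 37 and 33 CpG dinucleotides, against a median of 7. Motifs were searched as letters on both strands. CCAAT, the CCAAT box, occurred 1 time in each window, outside the shared stretch for Col4a1 and across its edge for Col4a2, and in 37.4% of all windows. GGGCGG, the GC box, occurred 1 time in the Col4a1 window and 3 times in the Col4a2 window, of which 1 lies in the shared stretch, and in 35.7% of all windows. TATAAA, the TATA box, occurred 0 times in both windows and in 13.6% of all windows, and the CT-rich CCCTNCCCC occurred 0 times, against 9.48% of windows. These are matches of letters only. Of the 9 genes, 6 had a window in the table, 7 windows in all.

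**Figure D1:**
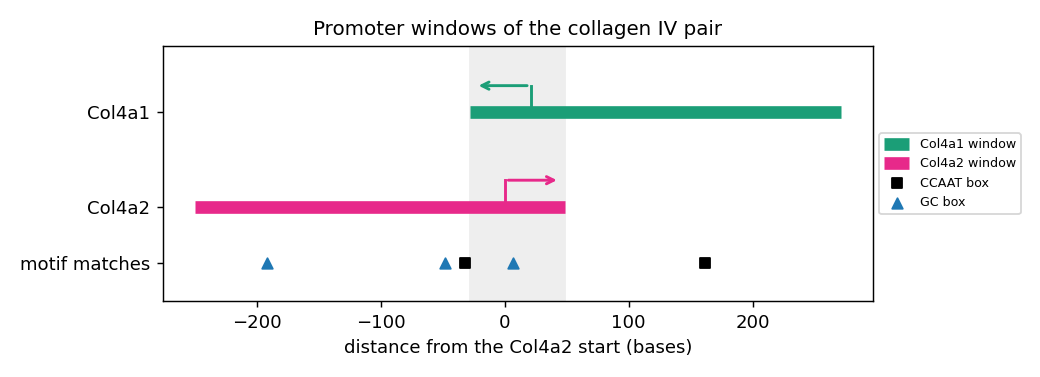
Map of the promoter windows of Col4a1 and Col4a2 (bars), with distance from the Col4a2 start in bases on the horizontal axis, the starts and direction of transcription as arrows, and matches to the CCAAT box (squares) and the GC box (triangles). The starts lie 21 bases apart, and the shaded stretch is the 78 bases in both windows.

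The arrays were alike in their overall signal, with medians of 71.7 to 81.0 on knockdown arrays and 69.2 and 73.6 on control arrays. The labelled cell type was checked with 9 embryonic stem cell markers, all above the filter. Pou5f1, the core pluripotency factor, read 9281 to 10932 on knockdown arrays and 9069 and 11587 on control arrays, and the markers' summed signal was 88237 to 101583 on knockdown arrays and 103718 and 124256 on control arrays. The 18S ribosomal RNA control probe set (3′) read lower on all 4 knockdown arrays, 3712 to 6177, than on both control arrays, 6875 and 8140. The 3′ probe set of Actb over its 5′ probe set, a ratio that rises as RNA degrades, was 2.26 and 2.40 in sh3, 2.80 and 2.81 in sh4, and 2.70 and 2.77 in shNT. The brightest Jmjd1c probe set, 1426900_at, read 4541 and 4984 in sh3 and 3274 and 4215 in sh4, against 6060.3 and 5516 in shNT. It averaged 73.5% of shNT in knockdown cells (82.3% in sh3, 64.7% in sh4; log2 difference -0.46, limma adjusted p = 0.358). The other Jmjd1c probe sets went the opposite way: 1439998_at read 286 to 511 on knockdown arrays and 198 and 273 on control arrays, and 1448049_at read 629.6 to 822 on knockdown arrays and 368 and 373 on control arrays. The log2 difference of 1448049_at was 0.90 (limma adjusted p = 0.117 over all probe sets). With the replicate number as a block in the fit it passed as higher (limma adjusted p = 0.0127), also in sh3 (0.04) and in sh4 (0.0219). In that fit 1426900_at passed as lower in sh4 (-0.64, limma adjusted p = 0.0394) and did not pass in the knockdown mean (0.0745). The groups are therefore called knockdown by their labels only.

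Col4a1 rose in knockdown cells, and both chains of collagen IV were higher on all 4 knockdown arrays than on both control arrays. Nid1 was lower on all 4, and the signals of the other 6 genes overlapped between knockdown and control arrays. By limma over all genes, 1 of the 9 rose and 0 fell in the knockdown mean, the average of both hairpins against shNT; of all genes tested 0.56% rose and 0.166% fell. With the replicate number as a block in the fit, 2 rose (Col4a1 and Col4a2) and 1 fell (Nid1), where 3.33% of all genes rose and 2.26% fell. Of the 9 genes, 2 lay above the control arrays on every knockdown array, where 11.2% of all genes did, and 1 lay below, where 9.54% did. The median log2 difference of the 9 genes was 0.16, against 0.01 for all genes tested. Values are array signals on a linear scale, differences are in log2(signal + 16), and SDs are over arrays. In whole cultures, a change in the number of cells that make these proteins and a change in their RNA per cell cannot be told apart.

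**Figure D2:**
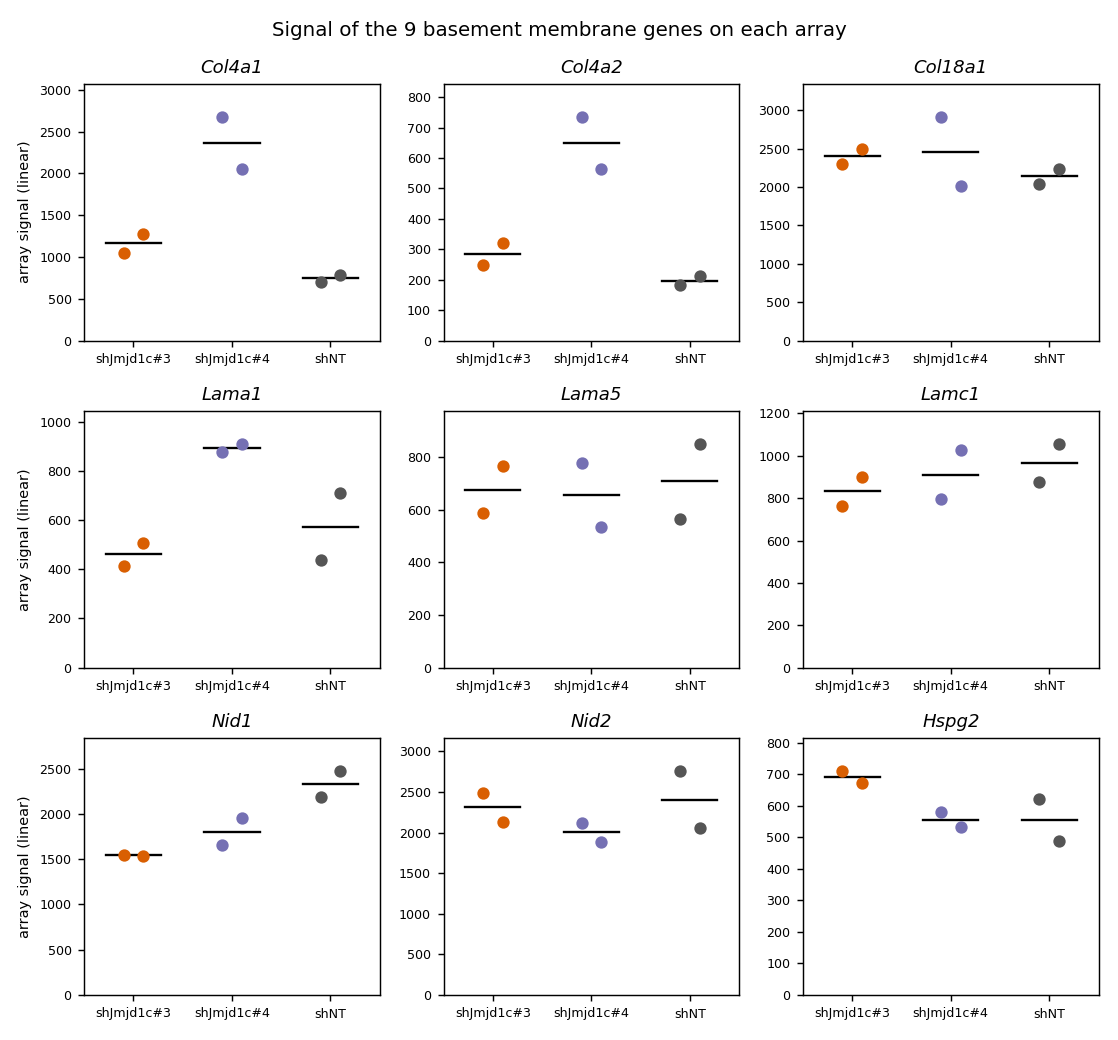
Signal of the probe set that stands for each of the 9 genes (vertical axis, linear array signal from 0) on each array (points), with group means as lines, for sh3, sh4 and shNT. Only Col4a1 and Col4a2 have all 4 knockdown arrays above both control arrays, and only Nid1 has all 4 below them.

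Col4a1, the alpha 1 chain of collagen IV, read 1046 and 1277 in sh3 and 2672 and 2050.2 in sh4, against 698 and 787 in shNT (probe set 1452035_at). Every knockdown array lay above both control arrays, and both sh4 arrays lay above both sh3 arrays. The signal averaged 1761 ± 744 in knockdown cells and 742 ± 62.3 in control cells (SD, n = 4 and 2), or 237% of shNT. The log2 difference was 1.13 (SE 0.15, limma adjusted p = 0.0214), and with the replicate block the adjusted p was 0.000713 by limma. Col4a1 stood 107th by size of rise and 17th by p among the 12684 genes.

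The call for Col4a1 rested on single arrays. It held without sh3 replicate 1 (log2 1.20, limma adjusted p = 0.0365) and without sh4 replicate 2 (1.23, 0.021), and was lost without shNT replicate 1 (1.05, 0.0679), shNT replicate 2 (1.22, 0.0914), sh3 replicate 2 (1.06, 0.0723) or sh4 replicate 1 (1.04, 0.058). The difference itself stayed between 1.04 and 1.23 over these 6 settings. A second Col4a1 probe set, 1426348_at, read 149 and 234 in sh3 and 367 and 285 in sh4, against 162 and 175 in shNT. There sh3 replicate 1 lay below both control arrays, and the knockdown difference of 0.51 (SE 0.24, limma adjusted p = 0.6 over all probe sets) did not pass. With the mean of both probe sets in place of the brighter one, the gene was at 0.82 (limma adjusted p = 0.121). In the fit over all 45037 probe sets, 0 of the 17 passed in the knockdown mean by limma, where 0.0422% of all did. With the block 3 passed, where 1.03% of all did. An unadjusted p under 0.05 was seen for 5 of the 17, and in the fit over genes for 1559 of 12684 genes.

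Col4a2, the alpha 2 chain of the same trimer, read 249 and 321 in sh3 and 734 and 562 in sh4, against 182 and 212 in shNT (probe set 1424051_at, its only one). All 4 knockdown arrays again lay above both control arrays, with both sh4 arrays highest. The signal averaged 467 ± 223 in knockdown cells and 197 ± 21.5 in control cells (SD, n = 4 and 2), or 237% of shNT. The log2 difference of 1.06 (SE 0.19, limma adjusted p = 0.0508) missed the threshold, and passed with the replicate block (adjusted p = 0.00539 by limma). It stayed between 0.96 and 1.17 when 1 array was left out.

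By the probe sets that stand for the genes, the 2 chains differed from the control mean by nearly the same amount on the sh4 arrays. On the sh3 arrays Col4a2 changed less than Col4a1, by 0.17 and 0.10. The second Col4a1 probe set, 1426348_at, did not follow Col4a2 as closely. It was at 0.14 in sh3 and 0.88 in sh4, where Col4a2 was at 0.50 and 1.63. The log2 change of Col4a1 was 0.49 and 0.77 in the sh3 arrays and 1.83 and 1.45 in the sh4 arrays, and that of Col4a2 was 0.32 and 0.67 in the sh3 arrays and 1.82 and 1.45 in the sh4 arrays. On the control arrays Col4a1 lay at -0.08 and 0.08 and Col4a2 at -0.10 and 0.10. The mean absolute difference between the chains over the 4 knockdown arrays was 0.0695, the smallest between Col4a1 and any of 12683 other genes. The nearest genes outside the 9 were Ccnd2, a D-type cyclin, at 0.13, then Prr27 (0.144), the sodium-phosphate transporter Slc34a2 (0.167), C130026I21Rik (0.192) and the hyaluronan receptor Cd44 (0.199). Ccnd2 read 463 and 427 in sh3 and 1172 and 824 in sh4, against 362 and 270.2 in shNT, so it too was highest in both sh4 arrays. Prr27 read 34.5 and 41.6 in sh3 and 114 and 61.9 in sh4, against 20.4 and 21.8 in shNT. Both control values lie under the filter signal of 40.12, so Prr27 entered the test through the knockdown arrays. In shNT Slc34a2 read 19.9 and 54.5 and C130026I21Rik 11.6 and 82.3, so their control means are uncertain. The measure is a description over 4 arrays, and many genes that change by a like amount would come near.

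**Figure D3:**
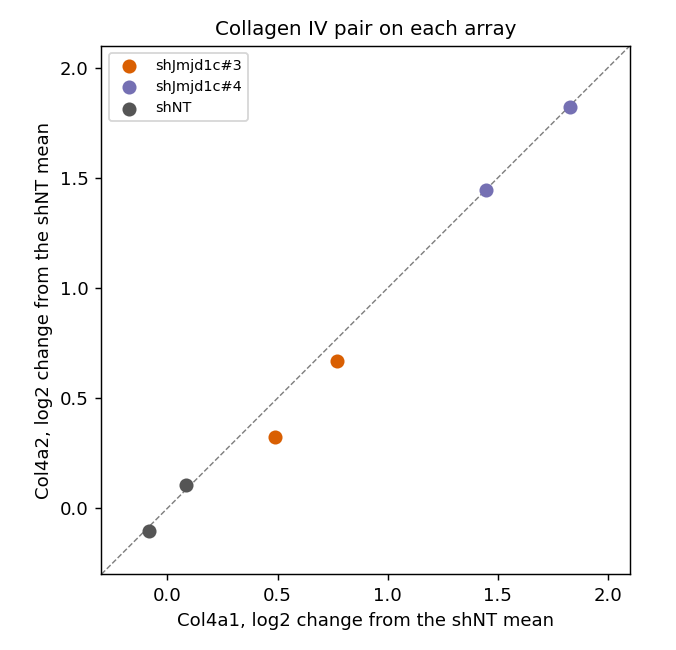
Log2 change from the shNT mean of Col4a1 (horizontal axis) and Col4a2 (vertical axis) on each of the 6 arrays, with the line of equal change dashed. Points of sh4 lie on the line at 1.45 and above, and those of sh3 lie just under it between the control and sh4 arrays.

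No laminin chain passed the test in the knockdown mean. Lama1, the alpha 1 chain of the laminin made by parietal endoderm and early embryo, split by hairpin. It read 415 and 507 in sh3 and 875 and 908 in sh4, against 438 and 708 in shNT (probe set 1418153_at). Both sh4 arrays lay above both control arrays, while the sh3 arrays overlapped the control arrays, which differed from each other more than the arrays of either hairpin did. The knockdown difference was 0.19 (SE 0.20, limma adjusted p = 0.764), with -0.27 in sh3 (SE 0.23, limma adjusted p = 0.759) and 0.66 in sh4 (SE 0.23, limma adjusted p = 0.294). With the replicate block Lama1 rose in sh4 (adjusted p = 0.0444 by limma). In the knockdown mean it was at 0.53 without shNT replicate 2 and -0.14 without shNT replicate 1.

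Lama5, the alpha 5 chain found in most later epithelia, read 587 and 767 in sh3 and 779 and 536 in sh4, against 567 and 849 in shNT (1427009_at). These ranges overlapped, and the knockdown difference was -0.07 (SE 0.22, limma adjusted p = 0.932). A second probe set, 1427010_s_at, read 391 to 539.9 on knockdown arrays and 383 and 483 on control arrays, a log2 difference of 0.13, so the 2 probe sets had opposite signs and neither passed. The third, 1459614_at, was the 1 member probe set with a mean under the filter. It read 3.65 to 37.1 on knockdown arrays and 2.29 and 3.67 on control arrays, levels at which a fold has little meaning. Lamc1, the gamma 1 chain common to most laminins, read 765 and 902 in sh3 and 795 and 1027 in sh4, against 878 and 1054.5 in shNT (1423885_at). Its knockdown difference was -0.15 (SE 0.15, limma adjusted p = 0.772), and its second probe set, 1423886_at, was at -0.23.

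The nidogens link laminin to collagen IV. Nid1 read 1551 and 1535.5 in sh3 and 1655 and 1956 in sh4, against 2189 and 2472 in shNT (probe set 1416808_at). All 4 knockdown arrays lay below both control arrays, at 71.9% of shNT on average, opposite in sign to collagen IV. The log2 difference of -0.48 (SE 0.12, limma adjusted p = 0.142) did not pass, and Nid1 fell with the replicate block (adjusted p = 0.0151 by limma). In sh3 the difference was -0.59 (SE 0.13, limma adjusted p = 0.186) and with the block Nid1 fell (adjusted p = 0.0155 by limma); in sh4 it was -0.37 (SE 0.13, limma adjusted p = 0.318, and 0.083 with the block). Its other 2 probe sets had the same sign. Probe set 1448469_at read 132 to 222 on knockdown arrays and 224 and 318 on control arrays, and 1441519_at read 24.8 to 58.1 on knockdown arrays and 68.2 and 78.6 on control arrays, each with a log2 difference of -0.69. At all 3 probe sets every knockdown array lay below both control arrays, where 7.62% of all probe sets did, and probe sets of 1 gene are not independent of each other. Nid2 read 2492 and 2126 in sh3 and 2117 and 1887 in sh4, against 2753 and 2054 in shNT (1423516_a_at). The groups overlapped, with a knockdown difference of -0.15 (SE 0.14, limma adjusted p = 0.746).

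Hspg2 encodes perlecan, which ties the laminin and collagen IV networks together. It read 709 and 674 in sh3 and 579 and 533 in sh4, against 622 and 489 in shNT (1418669_at), with a knockdown difference of 0.16 (SE 0.15, limma adjusted p = 0.732). Its second probe set, 1418670_s_at, read 530.04 and 604 in sh3 and 651 and 689 in sh4, against 386 and 476 in shNT. There all 4 knockdown arrays lay above both control arrays, and the difference of 0.51 (SE 0.15, limma adjusted p = 0.384 over all probe sets) did not pass. Of the 17 member probe sets, 3 had every knockdown array above both control arrays, where 9.66% of all probe sets did. Col18a1, whose cleaved end is endostatin, read 2299 and 2494 in sh3 and 2909 and 2013 in sh4, against 2044 and 2239 in shNT (1426955_at), with a difference of 0.17 (SE 0.15, limma adjusted p = 0.722). Its other probe set, 1418237_s_at, was at -0.14, and the ranges of both overlapped.

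**Figure D4:**
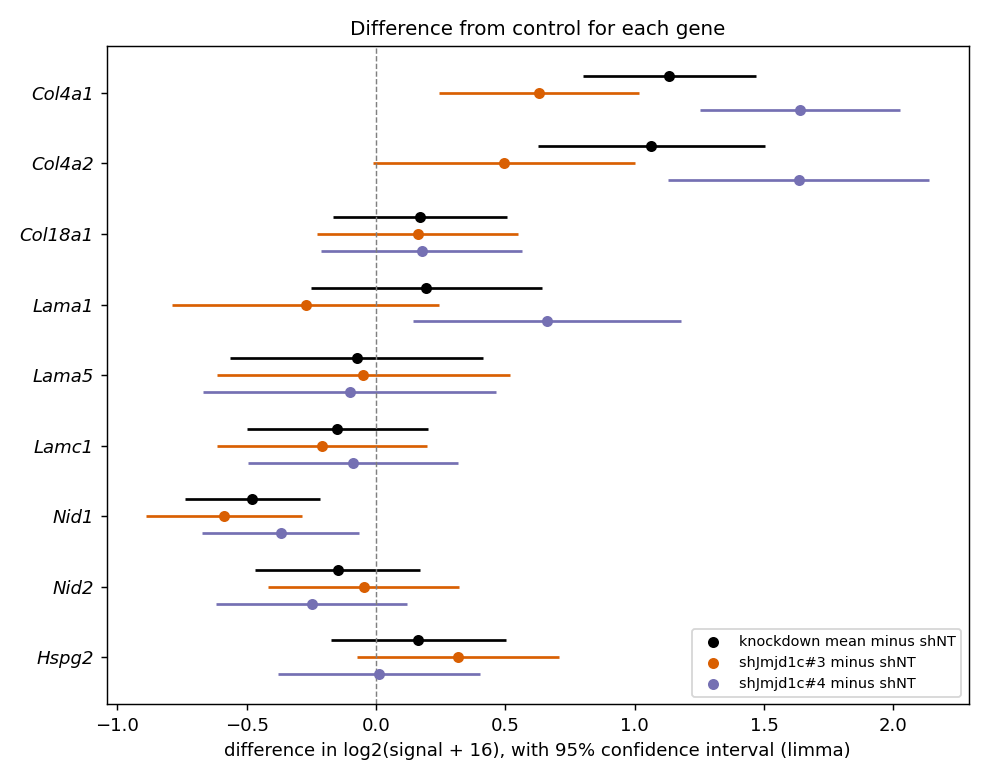
Log2 difference from shNT (horizontal axis, log2(signal + 16)) for each of the 9 genes in the knockdown mean, sh3 and sh4, with limma's 95% confidence intervals as bars. The collagen IV chains lie furthest right, at 1.13 and 1.06 in the knockdown mean, and Nid1 furthest left at -0.48.

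Set one by one against the same control arrays, the hairpins differed in what passed. In sh4, 2 of the 9 genes rose and 0 fell by limma, where 0.284% of all genes rose. Col4a1 was at 1.64 (SE 0.17, limma adjusted p = 0.0157) and Col4a2 at 1.63 (SE 0.22, limma adjusted p = 0.025), or 318% and 329% of shNT. With the block 3 rose, Lama1 being the other, where 2.69% of all genes did. In sh3, 0 of the 9 passed by limma, where 0.071% of all genes did, and 2 had an unadjusted p under 0.05 (Col4a1 and Nid1), where 9.74% of all genes did. Col4a1 was at 0.63 there (SE 0.17, limma adjusted p = 0.27) and Col4a2 at 0.50 (SE 0.22, limma adjusted p = 0.521), or 156% and 145% of shNT. With the block Col4a1 rose in sh3 (adjusted p = 0.0495 by limma), Nid1 fell, and Col4a2 did not pass (adjusted p = 0.224); 3.43% of all genes passed in that fit. On both sh3 arrays 4 of the 9 genes lay above both control arrays and 1 below, where 21.1% and 19.2% of all genes did. In sh4 these counts were 3 and 1, where 21% and 17.8% of all genes did.

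The sh4 calls also rested on single arrays. Col4a1 was lost in sh4 without shNT replicate 2 (log2 1.72, limma adjusted p = 0.0539) and without sh4 replicate 1 (1.45, 0.101). Col4a2 was lost without shNT replicate 1 (1.53, 0.0731), shNT replicate 2 (1.74, 0.081), sh4 replicate 1 (1.45, 0.232) or sh4 replicate 2 (1.82, 0.0626). The second Col4a1 probe set was at 0.88 in sh4 and did not pass (limma adjusted p = 0.398 over all probe sets).

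The difference between the hairpins was tested directly, without the control arrays. Col4a1 was higher in sh4 than in sh3 by 1.01 (95% interval 0.62 to 1.40, limma adjusted p = 0.352), Col4a2 by 1.14 (0.63 to 1.64, limma adjusted p = 0.402) and Lama1 by 0.93 (0.42 to 1.45, limma adjusted p = 0.51). None of the 3 passed over all genes. In that contrast 0% of all genes passed, 774 (6.1%) had an unadjusted p under 0.05, and 3 of the 9 genes were among these. With the replicate block the same 3 genes passed (adjusted p = 0.0219, 0.0475 and 0.0475 by limma), where 0.173% of all genes were higher. The other 6 genes had differences between -0.31 (Hspg2) and 0.22 (Nid1), with intervals that held 0; Hspg2 was at -0.034 with the mean of its probe sets. On both sh4 arrays 4 of the 9 genes lay above both sh3 arrays and 2 below, where 20.3% and 18.2% of all genes did.

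Markers of primitive endoderm and its derivatives were measured beside these genes. The list is mixed and includes genes of visceral endoderm, such as Hnf4a, so it does not measure the matrix-making parietal endoderm alone. Of 20 listed markers 19 had a probe set and 15 were tested, while Foxa2, Ttr, Afp and Thbd lay under the filter. In sh4 the 15 had a median log2 difference of 0.85, against 0.02 for all genes, and in sh3 of 0.13, against 0.01. On both sh4 arrays 10 of the 15 lay above both control arrays and 1 below, where 21% and 17.8% of all genes did, and on both sh3 arrays 4 lay above and 4 below, where 21.1% and 19.2% did. By limma 1 rose in sh4, the proteoglycan gene Srgn, named after its values were seen (1.63, limma adjusted p = 0.0456). Srgn read 158 and 113 in sh3 and 752 and 618 in sh4, against 256 and 169.6 in shNT. Its call held without shNT replicate 1 and was lost without each of the other 5 arrays (1.36 to 1.77). With the block 7 rose and 1, the apolipoprotein gene Apoe, fell. Of all genes 0.284% rose and 0.0788% fell in sh4 by limma, and 2.69% and 2.22% with the block. Between the hairpins 0 of the 15 passed and 4 passed with the block (Srgn, Cubn, Dab2 and Rhox5), all higher in sh4, where 0.173% of all genes were. With the mean of its probe sets Dab2 was at 0.69 in sh4 over shNT, against 1.35 with its brightest.

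Cubn, the endocytic receptor cubilin, read 121 and 83.8 in sh3 and 408 and 289.7 in sh4, against 111 and 83.8 in shNT, by a probe set that may cross-hybridize. Cubn rose in sh4 with the block (adjusted p = 0.00218 by limma). It was high on the arrays where collagen IV and Lama1 were highest. Sox17, an endoderm transcription factor, read 65.6 and 62.0 in sh3 and 261 and 159.7 in sh4, against 59.2 and 45.9 in shNT, by a probe set that may cross-hybridize. Its sh4 difference was 1.69 (limma adjusted p = 0.0743, and 0.00902 with the block), and it was 0.94 with the mean of its probe sets and 0.18 (limma adjusted p = 0.904) once probe sets open to cross-hybridization were left out. Gata4, a defining endoderm factor, overlapped between the groups and read 83.1 and 50.9 in sh3 and 34.8 and 62.3 in sh4, against 45.5 and 74.1 in shNT. Gata6, its partner, read 82.7 and 77.3 in sh3 and 214 and 144 in sh4, against 114 and 99.3 in shNT, with a difference of 0.65 in sh4 that did not pass (limma adjusted p = 0.415). In the knockdown mean 1 marker rose, the receptor megalin (Lrp2, 1.18, SE 0.18, limma adjusted p = 0.0361), where 0.56% of all genes did. Lrp2 was read by a probe set that may cross-hybridize. With the block 5 rose and 2 fell (3.33% and 2.26% of all genes), Lrp2, Cubn, Fst, Dab2 and Rhox5 against Hnf4a and Apoe. Hnf4a, a liver and visceral endoderm factor, read 47.3 to 108.7 on knockdown arrays and 142 and 190.2 on control arrays, also by a probe set that may cross-hybridize. The call for Lrp2 held when shNT replicate 1 or sh4 replicate 2 was left out and was lost without each of the other 4 arrays in turn, at 0.93 without shNT replicate 2. The summed signal of the 19 markers was 7538 and 9148 in sh3 and 10536 and 13260 in sh4, against 7800.08 and 10939 in shNT, so the sums overlapped. Apoe and Rhox5 were the brightest of the 19 and went opposite ways (-0.75 and 0.36 in the knockdown mean). Apoe read 1816 and 2512 in sh3 and 1884 and 3281 in sh4, against 2969 and 5078 in shNT. Rhox5 read 3080 and 4428 in sh3 and 4270 and 6579 in sh4, against 2756 and 4318 in shNT. The sums and their overlap therefore mostly reflect these genes. The part of endoderm cells in the collagen IV result was not tested.

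**Figure D5:**
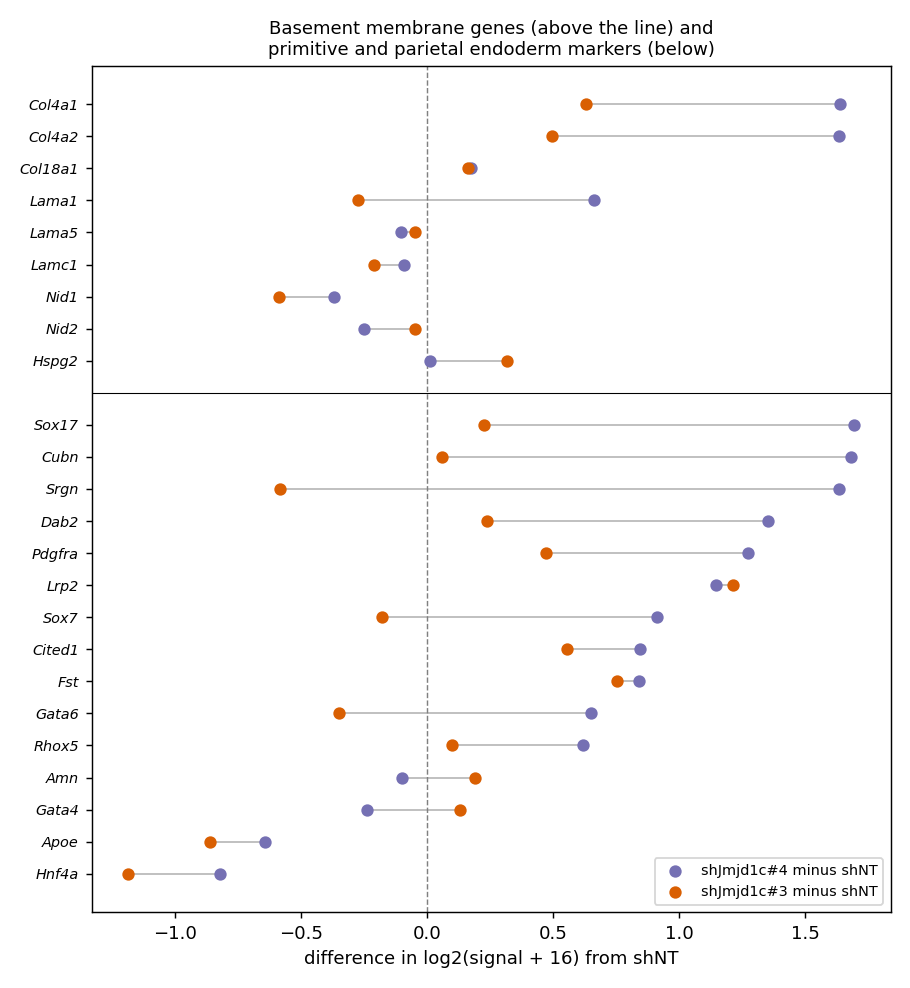
Log2 difference from shNT (horizontal axis) in sh4 and sh3 for the 9 basement membrane genes (above the line) and the 15 tested endoderm markers (below it), joined by a line for each gene. Col4a1, Col4a2 and Lama1 lie to the right in sh4, as do Cubn, Srgn, Dab2 and Sox17, while Lrp2 and Fst lie at like values in both hairpins. Cubn, Sox17, Lrp2 and Hnf4a were read by probe sets that may cross-hybridize.

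Fibroblasts also make collagen IV, and some of their markers were higher on the knockdown arrays. Of 15 listed markers 14 had a probe set and 9 were tested. All 9 had a positive difference in the knockdown mean, with a median of 0.87, against 0.01 for all genes. Every knockdown array lay above both control arrays for 5 of the 9 (Col3a1, Dcn, Col5a2, Col5a1 and Twist1), where 11.2% of all genes did. The arrays overlapped for Col1a1, Col1a2, Pdgfrb and Thy1. The filter used the mean over all arrays. Col3a1 and Dcn read under its signal of 40.12 on both control arrays, so they entered the test through the knockdown arrays, and their calls and the count and median over the tested markers are a description only. By limma 1 rose, where 0.56% of all genes did. This was the fibrillar collagen Col3a1, which read 109 and 189.6 in sh3 and 171 and 254 in sh4, against 25.6 and 37.6 in shNT (2.01, SE 0.30, limma adjusted p = 0.0336). Col3a1 stayed a call without sh3 replicate 1 and was lost without each of the other 5 arrays, at 1.83 to 2.19. With the block 3 rose, where 3.33% of all genes did, also the proteoglycan Dcn (1.67, limma adjusted p = 0.0504, and 0.018 with the block) and the fibrillar collagen Col5a2 (1.17, limma adjusted p = 0.085, and 0.00547 with the block), while Col5a1 was at 0.56. In sh4 2 rose by limma, Col3a1 (2.25, limma adjusted p = 0.0443) and Dcn (2.20, limma adjusted p = 0.0456), where 0.284% of all genes did. There Col3a1 stayed a call without sh3 replicate 1 and was lost without each of the other 5 arrays, while Dcn was lost without any shNT or sh3 array and lay under the filter without either sh4 array. The summed signal of the 14 markers was 1530.04 and 1685 in sh3 and 1775 and 1921 in sh4, against 939 and 1042 in shNT. Both sh4 sums lay above both sh3 sums, and all 4 knockdown sums above both control sums. The 5 markers under the filter were not tested. Among them Twist2 read 37.1 to 63.2 on knockdown arrays and 20.8 and 2.1 on control arrays, and Lum read 27.4 to 33.5 on knockdown arrays and 20.8 and 4.36 on control arrays, above both controls on every knockdown array. The others overlapped: Fap read 0.846 to 32.5 on knockdown arrays and 10.7 and 19.2 on control arrays, Postn 4.45 to 37.2 on knockdown arrays and 19.8 and 43.4 on control arrays, and Col6a1 30.7 to 52.0 on knockdown arrays and 37.0 and 46.4 on control arrays. The median against shNT was 0.72 in sh4 and 0.99 in sh3, while the median of the direct difference of sh4 over sh3 was 0.20, positive in 7 of the 9. None of the 9 passed between the hairpins by limma, with or without the block. The part of these cells in the collagen IV result was not tested.

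Of the 9 embryonic stem cell markers 0 passed by limma in the knockdown mean, with a median of -0.30, and 4 fell with the block, where 2.26% of all genes did: Sox2 (-0.33), Esrrb (-0.77), Nanog (-0.40) and Dppa5a (-0.30). Fgf4 was at -0.30. Of 10 endothelial markers 7 were tested and 0 passed by limma with or without the block in any comparison, with a median of 0.09 in the knockdown mean; Esam was at 0.88, Flt1 at 1.21, Tek at -0.51 and Egfl7 at -0.33. In sh4 their median was 0.64, with 3 of the 7 above both control arrays and 2 below (21% and 17.8% of all genes), and in sh3 it was -0.13, with 2 above and 3 below (21.1% and 19.2% of all genes). Between the hairpins 6 of the 7 were higher in sh4. Kdr, a receptor for vascular endothelial growth factor, read 29.6 and 31.8 in sh3 and 91.6 and 84.5 in sh4, against 50.8 and 48.0 in shNT, and so was highest on both sh4 arrays, as collagen IV was. The summed endothelial signal was 1411 to 1719 on knockdown arrays and 1452 and 1709 on control arrays. The defining gene Cdh5, VE-cadherin, read 9.69 to 35.9 on knockdown arrays and 39.7 and 3.37 on control arrays, and Tie1 read 1.69 to 7.58 on knockdown arrays and 4.07 and 1.04 on control arrays. The part of such cells in the collagen IV result was not tested.

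Other genes of the basement membrane were read from lists chosen by function. Of 27 other basement membrane proteins 17 were tested. By limma 2 rose and 0 fell in the knockdown mean, where 0.56% and 0.166% of all genes did. The median was 0.08, against 0.01 for all genes. Pxdn, the peroxidase that makes the sulfilimine crosslinks of collagen IV, read 1869 and 1759 in sh3 and 1971 and 1665 in sh4, against 1126 and 725 in shNT. All 4 knockdown arrays lay above both control arrays (0.99, SE 0.17, limma adjusted p = 0.0447), and sh3 and sh4 were alike, at 0.99 each. Sparc, a secreted protein that binds collagen IV, read 4052 and 4670.5 in sh3 and 3266 and 3323 in sh4, against 2479 and 2371 in shNT. It was higher on every knockdown array (0.64, SE 0.10, limma adjusted p = 0.0361), and at 0.25 with the mean of its probe sets (limma adjusted p = 0.514). Leaving out 1 array ended the call for Sparc in all 6 cases (0.59 to 0.69), and that for Pxdn in 5 of 6 (0.68 to 1.05 in those), all but shNT replicate 1. Col4a5, a further collagen IV chain, was at 0.94 (limma adjusted p = 0.249), and Lamb1, the beta chain that pairs with Lama1 and Lamc1, at 0.36 (limma adjusted p = 0.269). Lamb1 read 3021 to 3829 on knockdown arrays, above 2417 and 2662 on control arrays. Of the 27 genes, Lamb2 shares an older name with Lamc1 and was kept out of the 9 by its gene ID.

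Of 20 genes for the synthesis and secretion of collagen IV and laminin 19 were tested. By limma 1 rose and 0 fell in the knockdown mean, where 0.56% and 0.166% of all genes did. The median was 0.04, against 0.01 for all genes. The riser was Serpinh1, the collagen chaperone Hsp47, at 752 and 1114 in sh3 and 1247 and 1506 in sh4, against 383 and 562 in shNT (1.24, SE 0.20, limma adjusted p = 0.0394). It too was higher on every knockdown array, and at 1.53 in sh4 and 0.96 in sh3. Its call held without sh3 replicate 1 and was lost without each of the other 5 arrays (0.98 to 1.51), and it was at 0.81 once probe sets open to cross-hybridization were left out (limma adjusted p = 0.0929). Mia3, which loads collagen into secretory carriers, was at 0.34, the prolyl hydroxylation partner Crtap at -0.51 and P4hb, the beta subunit of prolyl 4-hydroxylase, at 0.15.

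Of 15 receptors for basement membrane 12 were tested and 0 passed by limma in the knockdown mean. Their median was 0.30, against 0.01 for all genes. With the block 2 rose and 1 fell, where 3.33% and 2.26% of all genes did. The collagen receptor Ddr1 was at 0.57 (limma adjusted p = 0.573, and 0.0453 with the block). Its arrays overlapped, with sh4 replicate 2 at 1713, below both control arrays at 3376 and 1730. Syndecan-1 (Sdc1) was at 0.66 (limma adjusted p = 0.151, and 0.00642 with the block) and syndecan-4 (Sdc4) at -0.36 (limma adjusted p = 0.222, and 0.0385 with the block). The laminin and collagen receptor subunit Itgb1 was at 0.35 and its tetraspanin partner Cd151 at 0.28. Of 19 genes of basement membrane turnover 14 were tested and 0 passed by limma, with a median of 0.38, against 0.01 for all genes. With the block 4 rose and 0 fell, where 3.33% and 2.26% of all genes did. These were the plasminogen activator Plat (1.22, limma adjusted p = 0.109, and 0.0233 with the block) and the serine protease Prss23 (1.10, limma adjusted p = 0.215, and 0.00462 with the block). The others were the gelatinase Mmp9, which cleaves collagen IV (1.02, limma adjusted p = 0.159, and 0.0448 with the block), and the metalloprotease Adamts1 (0.93, limma adjusted p = 0.181, and 0.0397 with the block). Prss23 overlapped between knockdown and control arrays. Plat read 186 and 132.8 in sh3 and 97.4 and 128 in sh4, against 54.7 and 41.6 in shNT, and so was highest in the hairpin with the lower collagen IV signal. With the mean of its probe sets it was at 0.54 (limma adjusted p = 0.551). Without shNT replicate 2 Prss23 was at 0.47, and without shNT replicate 1 at 1.73.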

How the data were processed

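Total RNA (6 ug a sample) was hybridized to 6 one-colour arrays. The deposited values are signal intensities on a linear scale, made by the authors with MAS5 per the submitters' processing notes (no version is given in the sources used here). On every array the middle 96% of values averaged 500.003, so the deposited intensity had been scaled, and it was used as it stands. Array number limits the precision. Of 45101 probe sets 64 were controls; 34945 had 1 symbol in the platform annotation, 932 several and 9160 none, and 34741 matched a current gene by Entrez ID.

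Signals became log2(signal + 16). The probe set with the highest mean stood for a gene, and genes at or above the 40th percentile of probe set means (log2 5.81) were tested. This scale shrinks differences between low signals. A model with 1 mean for each of the 3 groups was fitted to the 6 arrays together in limma 3.58.1 (R 4.3.3), with an intensity trend, 3 residual and 5.96 prior degrees of freedom and 2-sided tests, with Benjamini-Hochberg adjustment over all genes at 0.05. Every member probe set was also read from an unfiltered fit over all probe sets. Probe sets whose names end in _s_at or _x_at were taken as ones that may cross-hybridize. Of the tested list genes named, such a probe set stood for Lrp2, Cubn, Sox17, Hnf4a, Lamb1, Mia3, Serpinh1, Sdc1, Cd151, Ddr1, Prss23 and Egfl7. "Rose" and "fell" mean past that threshold, or past it with the block where so said. Replicate numbers come from the sample titles. Arrays with the same number departed from their groups together, with correlations over genes of 0.302 (sh3 and shNT), 0.223 (sh4 and shNT) and 0.3 (sh4 and sh3), so the numbers were taken to pair the arrays, and values with the number as a block (2 residual degrees of freedom) are given where they change a call; no label states a shared day.

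The 9 genes and the 8 lists were chosen with earlier results of these data known. Named are the members, up to 4 genes of each list by smallest p and any that passed. Named too are the 5 genes nearest to Col4a1 by mean absolute difference over the knockdown arrays. Srgn, Dppa5a, Dab2, Rhox5, Fst, Apoe, Ddr1, Kdr, Gata4, Gata6 and Pou5f1 were named besides, after their values were seen. So were Cited1, Pdgfra, the other fibroblast markers and the dim markers. In 10 simulated data sets of 12684 genes, 200 of them changed, the test of the knockdown mean recovered 39.6% of genes changed 1.5-fold, 71% at 2-fold and 93.6% at 3-fold. Noise there was independent between arrays, and a changed gene changed equally on all knockdown arrays. The real arrays departed together by replicate number and the hairpins differed, so these shares need not hold for them. Alternatives were other pseudocounts (1 and 64), filters, scalings and probe set summaries, no trend, the block, 1 knockdown group, and each array left out.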

Additional observations from a re-analysis of the deposited data

How the results depend on the processing

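Col4a1 and Col4a2 stayed positive in the knockdown mean under all 11 other settings and with each array left out (0.82 to 1.23 and 0.93 to 1.17), and Nid1 stayed negative (-0.62 to -0.39). The call for Col4a1 in the knockdown mean was lost with the mean of its probe sets, without an intensity trend (adjusted p = 0.122 by limma) and with the knockdown arrays as 1 group (0.157). In sh4 it was lost with the mean of probe sets (1.26, adjusted p = 0.0551 by limma) and without a trend (0.133), and Col4a2 was lost without a filter (0.0501) and without a trend (0.133). Of the 9 genes, 0 were called in the knockdown mean with the mean of probe sets, without a trend and with 1 knockdown group (3 to 4 had an unadjusted p under 0.05), 3 with the replicate block, and 0 to 1 with 1 array left out. In the knockdown mean 1309 of 11959 genes had an unadjusted p under 0.05 with the mean of probe sets. Without a trend 1499 of 12684 did, and with 1 knockdown group 1491 of 12684. Of the 17 probe sets 1 was called with a pseudocount of 1 and 3 with the replicate block. Genes called in the knockdown mean numbered 92, against 36 without a filter, 34 with the mean of probe sets, 59 without probe sets that may cross-hybridize, 0 without a trend (1499 with an unadjusted p under 0.05), 710 with the replicate block and 4 to 48 with 1 array left out. In sh3 the 9 calls became 0 with a pseudocount of 1, without a filter, with a 60th percentile filter, with the mean of probe sets and without a trend (1022 to 1543 with an unadjusted p under 0.05), 435 with the replicate block and 0 to 1 with 1 array left out. In sh4 the 46 calls became 21 without a filter, 27 with the mean of probe sets, 6 without a trend, 622 with the replicate block and 3 to 40 with 1 array left out. Between the hairpins the count was 0 by limma in all settings but the replicate block, with 53. Median centring shifted the median of all genes in sh4 to -0.09, against 0.02 as deposited, and split the calls into 33 higher and 22 lower, against 36 and 10. The cause of these changes was not tested. Small differences changed sign. With the mean of probe sets Lama5 was at 0.19 in the knockdown mean, 0.086 in sh3, 0.30 in sh4 and 0.21 between the hairpins, and Col18a1 at -0.042 in sh4 and -0.11 between the hairpins. With median centring Hspg2 was at -0.10 in sh4 and Col18a1 at -0.053 between the hairpins. Without probe sets that may cross-hybridize Sox17 was at -0.18 in the knockdown mean. With 1 array left out, ranges that crossed 0 were Lama1 -0.14 to 0.53, Lama5 -0.36 to 0.21, Nid2 -0.36 to 0.062, Hspg2 -0.0038 to 0.33 in the knockdown mean. They were Lama1 -0.61 to 0.065, Lama5 -0.33 to 0.24, Nid2 -0.26 to 0.16 in sh3. They were Col18a1 -0.087 to 0.44, Lama5 -0.39 to 0.18, Lamc1 -0.27 to 0.093, Hspg2 -0.16 to 0.18, Amn -0.35 to 0.15, Gata4 -0.55 to 0.074 in sh4. They were Col18a1 -0.25 to 0.28, Lama5 -0.32 to 0.21, Lamc1 -0.062 to 0.30 between the hairpins. Signal near background limits the dim probe sets of Lama5 and Nid1 and the dim markers.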
